A study of Homo sapiens with 5 samples.

Results

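DNase I peaks were described around MYC and its neighbour PVT1 on chromosome 8, in a window of 4 Mb from 127.5 to 131.5 Mb (hg18). The window was chosen from the peak lists themselves, because neighbouring Hodgkin-only peaks were frequent in it, so the counts and scores inside it are a description and carry no test. It held 270 of the 109231 peaks on chromosomes 1 to 22 and X, with 74 in L1236, 71 in L428 and 95 in L591, against 27 in Reh and 3 in Namalwa. DNase I cuts DNA where chromatin is accessible, and each peak marks such a site in 1 library of 1 cell line.

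L1236, L428 and L591 are established Hodgkin lymphoma lines. The non-Hodgkin lines are Reh, a leukaemia line of pro-B type, and Namalwa, a line of Burkitt lymphoma. All were used at passage 7 without further treatment. The DNase I concentration had been titrated and was 6 U/ml for L1236, L428 and Reh, whereas L591 and Namalwa received 12 U/ml. Each line gave 1 library, so spread could be seen between the 3 Hodgkin lines and between the 2 non-Hodgkin lines, but not within a line. The identity of the lines was not checked against marker genes, since no gene annotation of this build was used.

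MYC encodes a transcription factor that drives cell growth and division in many tissues, B cells included. PVT1 is the gene of a long non-coding RNA that follows MYC on the chromosome. Both lie in a long stretch that is poor in protein-coding genes and is known for enhancers that act on MYC over large distances, with different enhancers used in different cell types. In Burkitt lymphoma MYC is typically joined to an immunoglobulin locus by a translocation. In the RefSeq order of genes (a later build, used for names and order only), LRATD2 and POU5F1B are the nearest coding genes before MYC. GSDMC, CYRIB and ASAP1 are the nearest after it.

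The 5 lists differ in ways that bear on every count. The Namalwa list is short, with 5760 peaks, where the other lists hold 23288 to 27925. Of the Namalwa peaks, 98.4% overlapped a Reh peak, so Namalwa adds little that Reh does not show. The depth behind each list is unknown. The lowest score per bp of the L1236, L428 and L591 lists was 12.0, 6.60 and 5.70, against 3.67 in Reh and 4.42 in Namalwa. Scores are the authors' peak areas on no common scale, so they are given here as percentiles within a list, where 50 is the median peak of that list. Chromosome 8 as a whole held 4.16%, 5.19% and 4.36% of the L1236, L428 and L591 lists, against 4.08% in Reh and 4.17% in Namalwa. The share was thus highest in L428, and the other lists lay close together. The number of copies of the stretch in each line was not measured.

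The window was rich in peaks in the Hodgkin lines, and the non-Hodgkin lines had fewer there than their list densities would give. The Hodgkin lines had 80.0 ± 13.1 peaks in it (SD, n = 3), and their range of 71 to 95 did not overlap the 27 and 3 of Reh and Namalwa. The peaks per Mb in L1236, L428 and L591 were 18.5, 17.8 and 23.8, or 2.12, 2.24 and 2.63 times the density of the same list over the genome. Reh had 6.75 peaks per Mb, 0.711 times its own density, and Namalwa 0.750 per Mb, 0.383 times its own. At the density of its own list Reh would have had 38.0 peaks in the window and Namalwa 7.83. As a share of the list, the window took 0.289% of L1236 peaks (exact Clopper-Pearson 95% interval 0.227 to 0.362). It took 0.305% in L428 (0.238 to 0.384) and 0.357% in L591 (0.289 to 0.436). The share was 0.0967% in Reh (0.0637 to 0.141) and 0.0521% in Namalwa (0.0107 to 0.152). These intervals cover counting error only. Over the whole window, those of Reh and Namalwa take in the share that an even spread of their lists would give. The intervals treat peaks as independent and the window was chosen from these lists, so they do not judge the deficit. The deficit of Reh was uneven within the window. From the end of PVT1 to 130 Mb Reh had 0 peaks, against 7.78 at its list density, whereas its 3 peaks in PVT1 were near that density.

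The order of the groups was the same with lists of equal length, where each list was limited to its 5760 highest-scoring peaks. The window then held 29 peaks in L1236, 22 in L428 and 23 in L591, against 2 in Reh and 3 in Namalwa. At 6 U/ml of DNase I the full lists gave 74 and 71 peaks in L1236 and L428, against 27 in Reh, and at 12 U/ml 95 in L591 against 3 in Namalwa. An effect of the concentration was not tested.

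**Figure D1:**
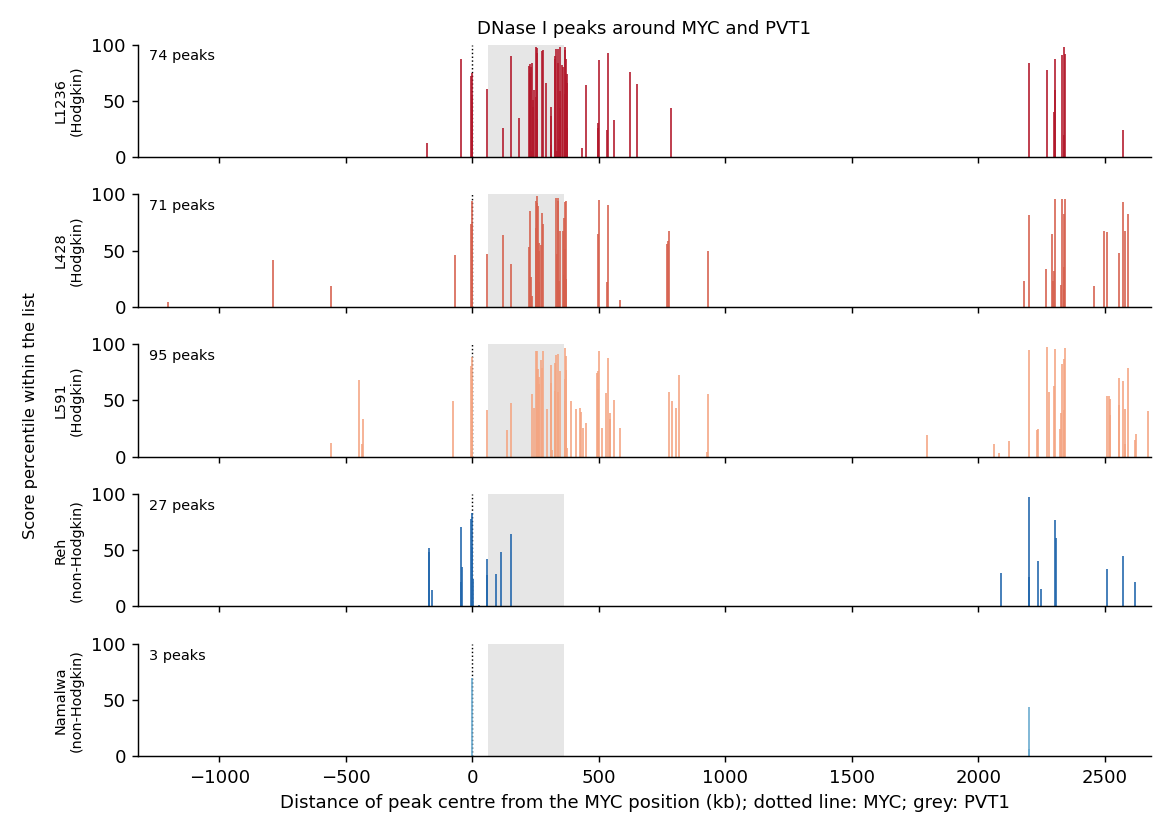
Each vertical line is a DNase I peak, placed by the distance of its centre from the MYC position (kb, x axis) and drawn to its score percentile within the list (y axis), with the 3 Hodgkin lines above the 2 non-Hodgkin lines and PVT1 in grey. The 74, 71 and 95 peaks of the Hodgkin lines crowd in and just after PVT1 and again beyond 2180 kb, whereas Reh has 27 and Namalwa 3 in the whole window.

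The window was divided into 5 parts by the positions in its definition, which place MYC at about 128.82 Mb and PVT1 at 128.88 to 129.18 Mb. Distances are from 128.82 Mb, and a minus sign means the side before MYC. The part within 10 kb of MYC and the stretch before it did not separate the groups, whereas PVT1 and the stretch after it did. Before MYC there were 2, 4 and 5 peaks in L1236, L428 and L591, against 6 in Reh and 0 in Namalwa. Within 10 kb of MYC there were 4, 3 and 3, against 5 and 1. Inside PVT1 there were 35, 26 and 25, against 3 in Reh and 0 in Namalwa. After PVT1 there were 32, 37 and 61, against 10 and 2. Between MYC and PVT1 each Hodgkin line had 1 peak, Reh had 3 and Namalwa 0.

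**Figure D2:**
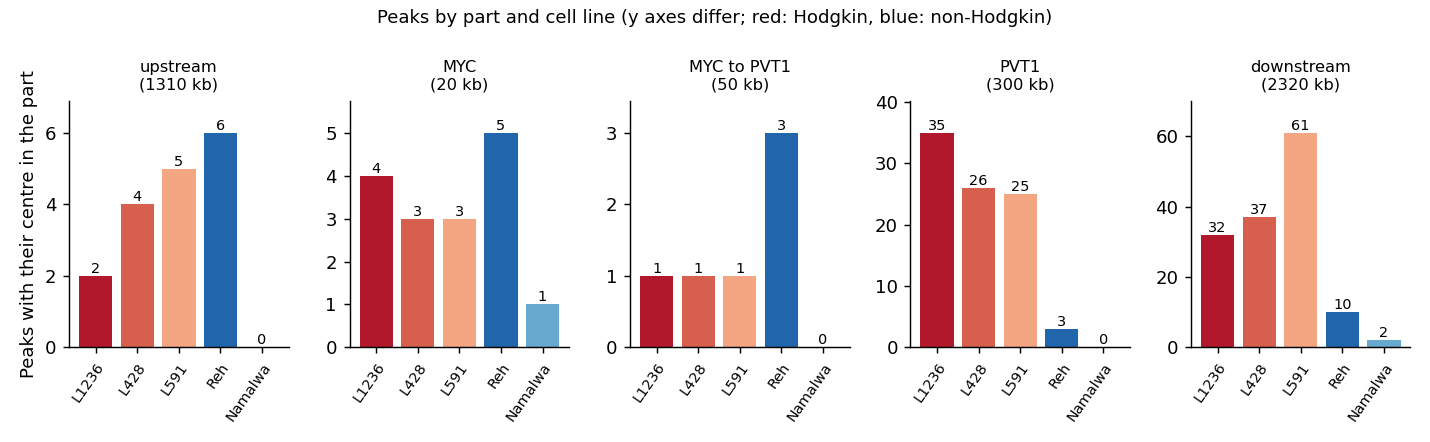
Bars give the number of peaks (y axis, from 0, on a different scale in each panel) with their centre in each of the 5 parts, for L1236, L428, L591, Reh and Namalwa from left to right. Reh equals or exceeds every Hodgkin line before, at and just after MYC (6, 5 and 3 peaks), and has 3 in PVT1 where the Hodgkin lines have 25 to 35.

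After overlapping peaks of the 5 lines had been joined, the window held 153 of the 59212 merged regions of the genome. All 3 Hodgkin lines and neither non-Hodgkin line had a peak in 20 of them, or 13.1% (exact 95% interval 8.17 to 19.5), where the genome had 4.33%. A region with a peak in 1 Hodgkin line alone was the most frequent kind, with 81 of 153 in the window and 41.3% in the genome. Regions with any Reh or Namalwa peak numbered 24, or 15.7%, where the genome had 44.1%. Of these, 14 had no Hodgkin peak, or 9.15%, where the genome had 22.6%, and all 14 were Reh regions. The 5 lines had a peak in common in 2 regions, or 1.31%, where the genome had 5.12%. Regions with peaks in Reh and Namalwa alone numbered 615 in the genome, or 1.04%. None lay in the window, which for 153 regions is near that share. Because the window was proposed for its Hodgkin-only regions, the excess over the genome is not a result of its own. In windows of 4 Mb laid over the genome from the same starting point, a count of 20 ranked 4 of 739, where the median was 2. Ignoring Namalwa left the count at 20 (13.1%), where the genome had 4.34%. With lists of equal length it was 14 of 39 regions (35.9%), where the genome had 2.68%. Without L1236, 36 regions (27.1%) had peaks in both L428 and L591 and in neither non-Hodgkin line, where the genome had 12.5%. A rule of 2 lines is easier to meet than that of 3. Without Namalwa 7 regions had a peak in every remaining list.

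At MYC itself all 5 lines had accessible chromatin. The region from 128816481 to 128817960, with its centre at -2.78 kb, had peaks in every list. The strongest peak of L1236 there stood at percentile 74.6, that of L428 at 94.5 and that of L591 at 89.1, against 83.5 in Reh and 70.2 in Namalwa. L428 ranked highest and Namalwa lowest, and the values of the groups overlapped. The region is made up of several peaks, with 3 in L1236 and 2 each in L428 and L591, against 3 in Reh and 1 of 490 bp in Namalwa. The position of MYC used here is rounded to 10 kb, so how these peaks lie to the start of the gene was not resolved.

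A second region beside it, from 128815381 to 128815990 at -4.31 kb, had a peak in 4 lines. L1236, L428 and L591 stood at percentiles 72.4, 73.4 and 80.6, against 78.0 in Reh, and Namalwa had no peak there. The values of the 4 lines lay close together. Reh alone had a further, weak region at 128823641 to 128823880, at percentile 24.4. Thus 2 of the 3 regions near MYC were common to the Hodgkin lines and Reh.

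Before MYC the window was sparse in all lines and held 14 regions over 1310 kb. None was shared by all 3 Hodgkin lines, and 4 of the 14 were found in Reh alone. Over the genome 4.33% of regions were in the 3 Hodgkin lines alone and 21.5% in Reh alone. With only 14 regions, both counts are near these shares. The strongest lay at 128776191 to 128776870, -43.5 kb from MYC, with a peak in L1236 at percentile 86.9 and in Reh at 70.4, and none in L428, L591 or Namalwa. A pair of Reh peaks at 128647221 to 128647590 and 128648471 to 128648780, -172.6 and -171.4 kb away, reached percentiles 52.1 and 48.7. Further Reh regions lay at -42.7 kb (percentile 34.9) and -160.6 kb (14.3). L591 had its strongest upstream peak at -450.2 kb (68.0), with no peak in any other list, and L428 at -70.4 kb (46.4). The longest stretch without a peak on this side, which began before the window in all lines but L428, measured 1.86 Mb in L1236, 0.488 Mb in L428 and 0.778 Mb in L591, against 1.62 Mb in Reh and 2.30 Mb in Namalwa.

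Between MYC and PVT1 the 4 longer lists shared 1 region, from 128876371 to 128876970 at 56.7 kb, close to the start of PVT1 at 128.88 Mb as given. L1236, L428 and L591 stood there at percentiles 60.4, 46.6 and 41.4, against 42.6 in Reh, and Namalwa had no peak. Reh had 2 more regions here, at 58.0 kb (percentile 27.6) and 25.5 kb (0.788).

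PVT1 divided at its midpoint into a near stretch, in which the lines had similar numbers of peaks, and a far stretch, in which they had not. From 128.88 to 129.03 Mb there were 3 peaks in L1236, 2 in L428 and 2 in L591, against 3 in Reh and 0 in Namalwa. From 129.03 to 129.18 Mb there were 32, 24 and 23, against 0 in Reh and 0 in Namalwa. In this far stretch peaks were 24.5, 20.2 and 16.9 times as dense in L1236, L428 and L591 as in the same list over the genome. At the density of its own list Reh would have had 1.42 peaks there and Namalwa 0.294, so an empty stretch of 0.15 Mb in those lists is a small deficit. The division was made after the values had been seen.

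In the near stretch, the region from 128971311 to 128972080 at 151.7 kb was the only one that Hodgkin lines shared with Reh. L1236, L428 and L591 stood at 90.3, 38.1 and 48.0, against 64.8 in Reh, so L1236 was highest and Reh second. Reh alone had regions at 111.3 kb (percentile 48.3) and 93.2 kb (28.7).

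The far stretch held 10 of the 20 regions of all 3 Hodgkin lines alone. The leading one, from 129068721 to 129070300 at 249.5 kb, stood at percentiles 98.2, 94.5 and 94.0 in L1236, L428 and L591. The next, from 129073931 to 129075260 at 254.6 kb, reached 97.3, 98.3 and 93.7 in the same order of lines. Both were thus above percentile 90 in all 3 Hodgkin lists, with no peak in Reh or Namalwa. A region from 129151471 to 129152750 at 332.1 kb stood at 96.5 in L1236, 97.2 in L428 and 90.7 in L591. One at 129157961 to 129158860 was lower in L1236, at 83.2, than in L428 (97.1) and L591 (91.4). At 129095431 to 129096420 the order was the other way, with 94.5 in L1236, 83.4 in L428 and 78.5 in L591. The strongest L591 peak of PVT1 lay in the region from 129097301 to 129098330, at 94.4, where L1236 stood at 95.4 and L428 at 74.1.

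Of the 51 regions of PVT1, 10 were common to the 3 Hodgkin lines alone, or 19.6%, where the genome had 4.33%. A further 25 were found in 1 Hodgkin line alone, or 49.0%, where the genome had 41.3%. Of those in a pair of lines, 5 were common to L1236 and L428, 4 to L1236 and L591 and 4 to L428 and L591. L1236 alone had 15, L591 alone 6 and L428 alone 4. From 220 to 240 kb after MYC, L1236 had 8 peaks, L428 4 and L591 1. From 260 to 280 kb L1236 had 2, and L428 and L591 had 6 each. From 300 to 320 kb L1236 and L591 had 3 each and L428 had 0. From 240 to 260 kb the 3 lines had 6 each, in the step that holds the 2 leading regions. Of L428 peaks in PVT1, 69.2% overlapped an L1236 peak and 65.4% an L591 peak, where the whole list had 43.5% and 67.4%. Of L591 peaks, 60.0% overlapped an L1236 peak and 60.0% an L428 peak, where the whole list had 40.6% and 55.1%. Of L1236 peaks, 45.7% overlapped an L428 peak and 42.9% an L591 peak, where the whole list had 38.8% and 44.6%. The shares in PVT1 were thus near those of the whole lists or above them.

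Hodgkin peaks in PVT1 were broader than the median peak of their lists and ranked higher by area, less so by area per bp. Their median percentile by score in L1236, L428 and L591 was 79.9, 65.7 and 70.6, above the 50 of the whole list. In the same lines the median widths were 520, 430 and 650 bp, where the whole lists had 310, 320 and 450 bp. By score per bp the median percentiles were 56.2, 50.2 and 63.0. Peaks covered 19.9 kb of PVT1 in L1236, 12.4 kb in L428 and 17.2 kb in L591, against 0.910 kb in Reh and 0 in Namalwa.

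**Figure D3:**
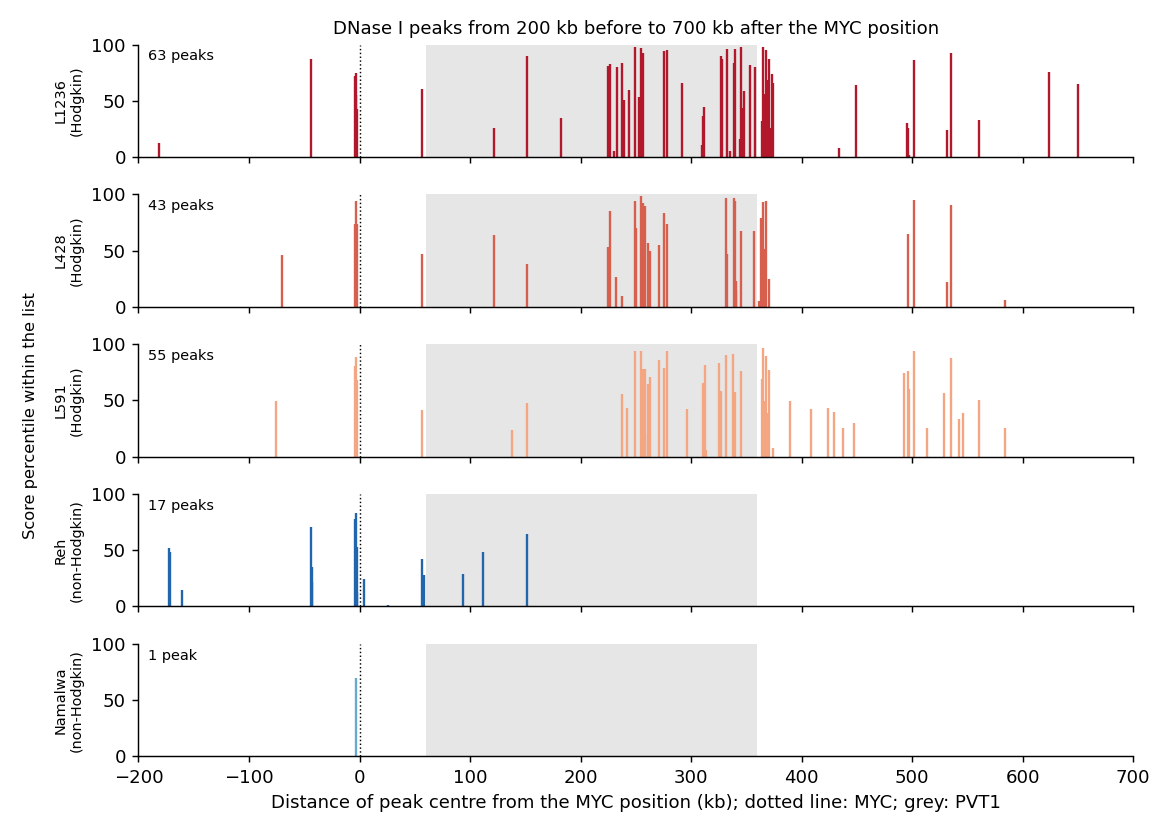
Peaks from 200 kb before to 700 kb after the MYC position (x axis, kb) are drawn to their score percentile (y axis), with PVT1 in grey. All lines have at least 1 peak at MYC and Reh has a few in the near stretch of PVT1, after which the 32, 24 and 23 peaks of its far stretch are all in the Hodgkin lines.

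The density did not end with PVT1. From its end to 130 Mb L1236 had 22 peaks, L428 16 and L591 31, against 0 in Reh and 0 in Namalwa. At the density of their own lists Reh would have had 7.78 peaks there and Namalwa 1.61. The step of 100 kb from 129.1 to 129.2 Mb, which spans the end of PVT1, was the fullest of the window in L1236 with 26 peaks and in L591 with 18. It ranked 40 in the L1236 list and 15 in the L591 list over all such steps of the genome. L428 had 15 peaks there (rank 40) and 16 in the step before it (rank 32).

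Just beyond the end of PVT1 lay a pair of neighbouring regions with peaks in all 3 Hodgkin lines. The first, from 129183821 to 129185750 at 364.8 kb, stood at percentiles 97.8, 93.3 and 96.8 in L1236, L428 and L591. The second, from 129186141 to 129188390 at 367.3 kb, was the wider, at 2250 bp, and stood at 95.4, 94.2 and 89.9. Farther on, at 129321581 to 129322320, 502.0 kb from MYC, L1236 reached 86.5, L428 95.1 and L591 94.5. At 129355031 to 129356040, 535.5 kb away, the 3 lines reached 92.5, 90.4 and 87.6. Of the 41 regions from PVT1 to 130 Mb, 6 were common to the 3 Hodgkin lines, 8 to 2 of them, and 27 were found in 1 alone, 15 of these in L591. None had a Reh or Namalwa peak, where 44.1% of the regions of the genome did. The stretch lies within a gap of the Reh list, so no region in it could have a Reh peak. Over the genome 4.33%, 10.2% and 41.3% of all regions had peaks in 3, 2 and 1 Hodgkin lines alone. That base includes regions with a Reh peak, so these shares are not a like comparison for the 6, 8 and 27. Regions of Hodgkin lines alone numbered 2566, 6063 and 24462 in the genome, so 1 line was the most frequent kind there too.

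A stretch without peaks followed. No line had a peak from 129750441 to 130617260, a stretch of 866.8 kb, and it ranked 19 by length among the gaps of chromosome 8 that all lists share. From 130 to 131 Mb L591 had 4 peaks, L1236 0 and L428 0, against 1 in Reh and 0 in Namalwa. Whether the stretch is a desert of genes was not examined. The first 0.82 Mb after PVT1, which ends within it, was rich in Hodgkin peaks at 3.08, 2.46 and 4.18 times the list density. The Reh list was empty for longer, over 1.94 Mb from 128971741 to 130907460, which ranked 15 among its 1138 gaps on chromosome 8. In that gap L1236 had 55 peaks, L428 40 and L591 57, or 74.3%, 56.3% and 60.0% of their peaks in the window. It held 90 regions, of which 16 were common to the 3 Hodgkin lines, 20 to 2 of them, and 54 to 1. Because the stretch is a gap of the Reh list, the lack of Reh peaks in these regions is fixed by its definition. Over the genome, regions of Hodgkin lines alone numbered 2566 in 3 lines, 6063 in 2 and 24462 in 1, so 1 line was the most frequent kind in both. These were 4.33%, 10.2% and 41.3% of all regions, a base that includes regions with a Reh peak.

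Peaks returned in all lines from 131 Mb to the end of the window, with 10 in L1236, 21 in L428 and 26 in L591, against 9 in Reh and 2 in Namalwa. Relative to their lists these densities were 2.29, 5.31 and 5.75 times in the Hodgkin lines, against 1.90 and 2.04 times in Reh and Namalwa. The region from 131020851 to 131021910 was the other one of the window with a peak in all 5 lines, at 83.3 in L1236, 81.7 in L428 and 94.9 in L591, against 97.1 in Reh and 44.3 in Namalwa. It was the strongest Reh region of the window. The region from 131123441 to 131124440 reached 87.5, 96.3 and 96.0 in L1236, L428 and L591, against 77.3 in Reh. That at 131390731 to 131391230 reached 24.1, 93.5 and 67.4, against 45.0 in Reh. Weaker Reh regions lay at 2307.4 kb, in Reh alone (percentile 61.3), and at 2234.9 kb, shared with L591 (40.5 in Reh and 24.7 in L591).

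Even here some strong regions had Hodgkin peaks alone. The region from 131160961 to 131162080, 2341.5 kb from MYC, stood at 91.5 in L1236, 96.1 in L428 and 97.1 in L591. The strongest L1236 peak after PVT1 lay in a region from 131155931 to 131157460, at 97.9, where L428 reached 82.8 and L591 86.7. The strongest L591 peak there, at 131089841 to 131090640, stood at 97.4 and was shared with L1236 at 77.5 but not with L428. Which genes these regions belong to was not resolved, as positions of genes other than MYC and PVT1 were not used.

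**Figure D4:**
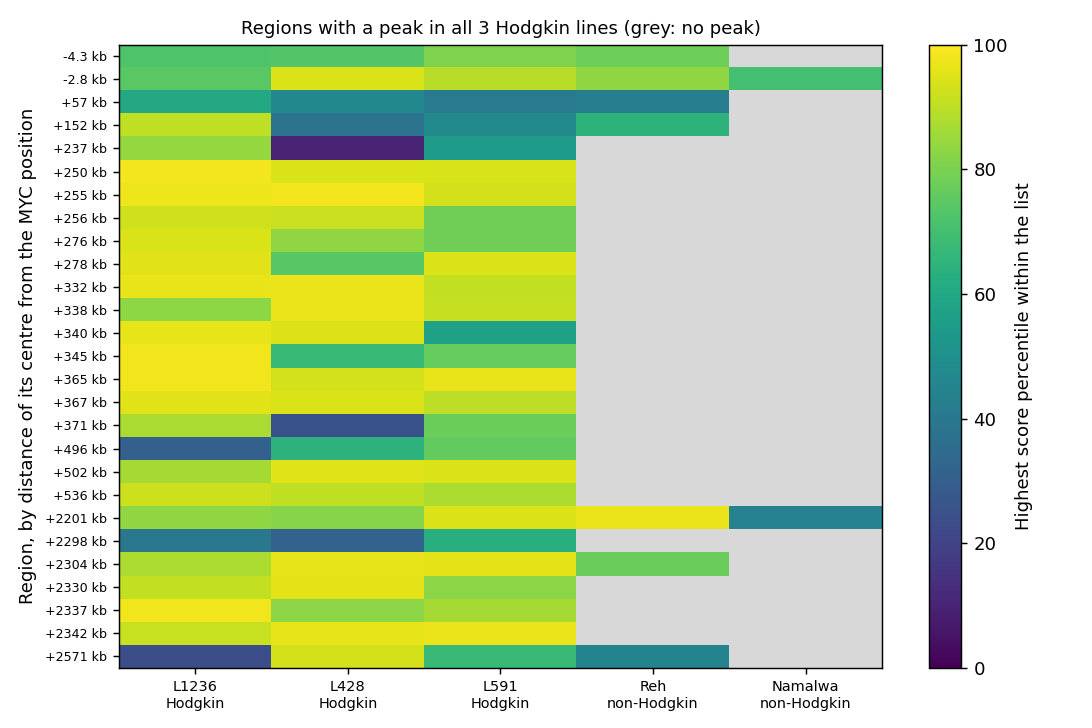
Rows are the regions of the window with a peak in all 3 Hodgkin lines, ordered by distance from the MYC position (kb), columns are the cell lines, and colour is the highest score percentile of the region in each list, with grey where there is no peak. By definition Reh and Namalwa are grey for the 10 regions in PVT1 with Hodgkin peaks alone. Of the regions drawn, 7 have a Reh peak, of which 2 also have a Namalwa peak.

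Regions of the 3 Hodgkin lines alone ranked higher here than in the genome. Their median percentile over the 20 regions of the window, in L1236, L428 and L591, was 93.6, 92.7 and 87.1, where the 2566 regions of the genome had 64.6, 60.8 and 60.5. In 5 of the 20 regions (25.0%) all 3 lines were above percentile 90, where the genome had 2.22%. They were also wider, with a median of 1020 bp against 600 bp. The scores come from the comparison that the window was chosen for, so these values have no test.

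The Hodgkin lists shared fewer of their peaks with Reh here than over the genome. The window was chosen for its Hodgkin-only peaks, so this lower share restates the choice and is not a result of its own. Of L1236 peaks in the window, 52.7% overlapped an L428 peak and 56.8% an L591 peak, against 38.8% and 44.6% over the genome. For L428 the shares were 56.3% in L1236 and 67.6% in L591, against 43.5% and 67.4%. For L591 they were 43.2% in L1236 and 47.4% in L428, against 40.6% and 55.1%. The share that overlapped a Reh peak was, for L1236, L428 and L591, 14.9%, 12.7% and 10.5%, against 31.5%, 44.3% and 43.1% over the genome. Seen from Reh, 40.7% of its 27 peaks in the window overlapped an L1236 peak, 37.0% an L428 peak and 40.7% an L591 peak, against 29.3%, 36.1% and 44.5% over the genome. These Reh shares rest on 10 or 11 peaks each. All 3 Namalwa peaks of the window overlapped a peak of each Hodgkin line, where 65.8%, 76.2% and 83.0% of the whole Namalwa list overlapped L1236, L428 and L591.

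The edges of the window lay in sparse chromatin on the side before MYC. The nearest peaks just outside it there were at 127.48 Mb in L428 (percentile 65.9) and L591 (12.2), and the first inside were at 127.62 Mb in L428 (4.48) and 128.26 Mb in L591 (11.8). L1236 and Reh had their first peaks inside at 128.64 Mb (11.9) and 128.65 Mb (52.1), and Namalwa at 128.82 Mb (70.2). On the other side the last peaks inside were at 131.39 Mb in L1236 (24.1), 131.41 Mb in L428 (82.3) and 131.49 Mb in L591 (40.8), against 131.44 Mb in Reh (21.5) and 131.02 Mb in Namalwa (6.76). The first outside followed at 131.59, 131.53 and 131.53 Mb in the Hodgkin lines (31.0, 79.6 and 81.6), against 131.50 Mb in Reh (25.2) and 135.79 Mb in Namalwa (47.7).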

How the data were processed

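DNase-seq peak lists of 5 cell lines were used, 1 per line. The submitters' processing notes name Bowtie 1.00 and the hg18 build, and the file headers give an elongation of reads to 146 bp and bins of 10 bp. The score in the deposited lists is the authors' peak area. The sources used here do not give the peak caller, its threshold or the depth, and 4 lists are marked qcTrimmed, the L1236 list not. A growth note spells L591 differently, and the title was followed. Positions are 1-based.

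Percentiles are ranks of the score within a list over chromosomes 1 to 22 and X. Densities over the genome use 2942 Mb, the sum of the spans from the first to the last peak of each chromosome. Peaks sharing at least 1 bp were joined over the genome, and a region's percentile in a line is that of its highest peak. Peaks and regions were assigned to a part by their centre. The joining of peaks and the counts of lines per region were tested on simulated data.

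The window, its parts and the regions were chosen with earlier results of these data known. Named regions are all those near MYC, up to 5 Hodgkin-only regions and up to 5 regions with a Reh or Namalwa peak by percentile in each part, the strongest of each line in each part, and those of all 5 lines. Other features were named after their values had been seen. With 1 list per line and a window chosen from these lists, no test was made. Gene lists and cell type markers had been planned and were not used without an hg18 annotation. Gene order came from RefSeq. Sequences of the stretch are not reported here. Alternatives covered list length, overlap rule, peak width, joining distance, window edges, and each line left out. Python 3.11.15, numpy 2.4.6, pandas 2.3.3, scipy 1.17.1 and matplotlib 3.10.9 were used.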

Additional observations from a re-analysis of the deposited data

How the results depend on the processing

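Over 28 counts and medians, 158 values were recomputed, of which 106 stayed within set limits and 52 did not. The limit was 1.5 times for a count, 1 SD of the Hodgkin lines for a median and the counting interval for a share of overlap, so counts inside it may still differ by more than the spread between lines. No order of the groups turned round in PVT1, where Reh had 0 or 1 peak under the settings that moved it. Lists of equal length gave 29, 22 and 23 peaks in the window in L1236, L428 and L591, against 2 in Reh. In PVT1 they gave 18, 9 and 10, against 0, and after it 10, 12 and 11, against 1. Chosen by width, equal lists gave 30, 27 and 27 in the window, against 3, with 19, 13 and 11 in PVT1, against 0, and 10, 11 and 15 after it, against 2. The upper 50% of each list gave 48, 41 and 50 in the window, against 9 in Reh and 1 in Namalwa. After PVT1 it gave 19, 21 and 28, against 3 and 0, and in PVT1 24, 17 and 18, against 1 in Reh. With the window edges moved inwards by 0.5 Mb, L428 and L591 had 17 and 35 peaks after PVT1, against 1 in Reh and 0 in Namalwa, which had 1 in the window. Regions of the 3 Hodgkin lines alone numbered 6 in PVT1 with equal lists and 6 after it with the edges inwards. Over the genome such regions made up 2.68% and 4.33% at these settings. Regions of all 5 lines numbered 1 with equal lists, the upper 50% or the edges inwards. By score per bp the PVT1 medians were 56.2, 50.2 and 63.0 in L1236, L428 and L591.

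Leaving out 1 line at a time gave 20 to 36 regions of the remaining Hodgkin lines alone in the window, 10 to 15 in PVT1 and 10 to 21 after it, the highest in the window and after PVT1 without L1236. Their share of the window's regions was 13.1% to 27.1%, where the genome had 4.34% to 12.5%. Regions of all remaining lines numbered 2 to 7, the highest without Namalwa. Fewer lines to satisfy raise both counts by construction. No paired analysis was possible because each line is a single library and no replicate number links lines of the 2 groups. Depth is unknown, so a missing peak says only that none was listed.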

Other observations

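Beyond the window, peaks of chromosome 8 were also unevenly spread among the lines, and these steps of 1 Mb were picked after the values had been seen. From 139 to 140 Mb L1236 had 37 peaks, L428 23 and L591 12, against 1 in Reh and 0 in Namalwa, with 4 regions of the 3 Hodgkin lines alone. In other steps Reh had more peaks than every Hodgkin line, whereas Namalwa, with its short list, had fewer than L428. From 86 to 87 Mb L1236 had 10 peaks, L428 29 and L591 26, against 116 in Reh and 20 in Namalwa. From 11 to 12 Mb they had 8, 13 and 6, against 35 and 6, and from 144 to 145 Mb 14, 46 and 33, against 72 and 20. From 126 to 127 Mb, before the window, the counts were 14, 33 and 42, against 10 and 2, with 8 regions of the Hodgkin lines alone. From 103 to 104 Mb they were 43, 36 and 48, against 19 and 6, with 11 such regions. From 127 to 128 Mb, the start of the window included, the counts were 0, 4 and 3, against 1 and 0.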
